A study of Mus musculus with 6 samples.

Results

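A small part of the mouse olfactory receptor repertoire was represented in RNA from testis. Of the 1135 protein-coding genes of the table with an Olfr symbol, 45 had a summed count of at least 30 over all 6 libraries, and these 45 are described here (the table lists 54532 genes). Another 271 coding receptor genes had 1 to 29 counts, and 819 (72.2%) had none. The 45 genes were selected on these counts, so their levels are given as a description and carry no test. At the minimum lay Olfr750 and Olfr874 with 30 counts each, and just under it Olfr1508 with 29 counts, then Olfr221 and Olfr700 with 28 each.

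Olfactory receptors are G protein-coupled receptors with a short coding sequence that usually lies in a single exon, and they form the largest gene family of the mouse genome, arranged in clusters on most chromosomes. In olfactory sensory neurons each cell expresses 1 receptor, which signals through the G protein subunit encoded by Gnal, adenylate cyclase 3 and a cyclic nucleotide-gated channel. Receptor transcripts are also known from male germ cells, where a few receptors have been linked to sperm chemotaxis.

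RNA-seq was carried out on testes of 3 WT samples and 3 samples carrying a knockout of 1700052I22Rik (KO), an RNA gene studied for a role in spermatogenesis. The labels name neither strain, age nor the extent of the deletion. Nothing states that each sample is a separate animal, so a p-value here speaks only for the spread among these 6 samples. Library totals lay between 17635045 and 18117593 counts. Counts of 1700052I22Rik were 185, 175 and 218 in the WT libraries and 0 in each KO library, in keeping with the labels (edgeR quasi-likelihood test, adjusted p = 4.89e-07). It was the single gene called of 19320 tested. Markers of testis cell types were present in each library: the summed level of 8 spermatid genes such as Prm2 and Tnp2 was 11064 to 13403 counts scaled to library size (CPM, TMM-normalised) in WT and 9850 to 13730 CPM in KO. None of 10 cell type marker lists held a gene called by edgeR. At an unadjusted p under 0.05, which 4.63% of all genes reached, were 4 of 7 macrophage, 3 of 4 endothelial, 1 of 6 Leydig cell and 1 of 6 spermatogonial genes and none of the other lists. The 6 Leydig cell genes tested were each lower in KO on the log2 scale, and so were the 7 macrophage genes, with summed levels of 213 to 831 CPM in WT and 233 to 631 CPM in KO for Leydig cells. The macrophage sums were 60.2 to 89.7 CPM in WT and 51.5 to 65.5 CPM in KO, and the part of these shifts in the receptor values was not tested. In bulk testis RNA, fewer cells of a type and less RNA per cell cannot be told apart.

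The receptor counts were concentrated in few genes. The 45 genes held 83.9% of the 9691 counts of all coding receptors, the 5 with the most counts held 41.2%, and Olfr701 alone held 16.2%. Per kilobase of gene model, the mean level over 6 libraries ran from 3.49 RPKM (CPM per kilobase of gene model) for Olfr701 down to 0.0482 RPKM for Olfr750, with a median of 0.248 RPKM. Of the 45, 5 were above 1 RPKM and 4 were below 0.1 RPKM. The median of the 19238 coding genes with any count was 2.03 RPKM, and 8021 of 22046 coding genes (36.4%) lay above Olfr701.

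Olfr701 (ENSMUSG00000036744) spans chr7:106814129-106821472 on the plus strand of mm10. Its annotated transcripts have up to 5 exons, and its 948-base coding sequence (106818085 to 106819032) lies in 1 of them, well inside the gene. Its counts were 267, 266 and 230 in WT and 279, 267 and 260 in KO. Per kilobase this was 3.53, 3.53 and 3.02 RPKM in WT and 3.74, 3.61 and 3.48 RPKM in KO. The lowest of these values lay above every library of the other 44 receptors, the highest of which was 2.20 RPKM for Olfr128 in WT 1.

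Upstream sequence is shown for the receptors whose deposited gene start lies within 100 bases of a RefSeq transcript start, since elsewhere the RefSeq window does not lie at the start of the gene as counted here. RefSeq windows were matched for 34 of the 45 genes, and 4 met that limit (Olfr701, Olfr212, Olfr32 and Olfr183). In the other 30 the RefSeq start lay a median of 3006.5 bases inside the gene model. Below are the 250 bases before the RefSeq start (GRCm38.p6, strand of the gene) of Olfr701 (chr7:106813879-106814128, plus strand), Olfr212 (chr6:116506266-116506515, plus strand) and Olfr183 (chr16:58995154-58995403, plus strand). Capitals mark the TATA box letters TATAAA, read on the opposite strand.
Olfr701: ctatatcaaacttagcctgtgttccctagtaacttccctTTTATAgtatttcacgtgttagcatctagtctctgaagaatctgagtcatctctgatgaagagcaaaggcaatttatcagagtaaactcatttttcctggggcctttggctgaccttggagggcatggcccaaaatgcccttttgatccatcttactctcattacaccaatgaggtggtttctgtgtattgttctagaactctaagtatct
Olfr212: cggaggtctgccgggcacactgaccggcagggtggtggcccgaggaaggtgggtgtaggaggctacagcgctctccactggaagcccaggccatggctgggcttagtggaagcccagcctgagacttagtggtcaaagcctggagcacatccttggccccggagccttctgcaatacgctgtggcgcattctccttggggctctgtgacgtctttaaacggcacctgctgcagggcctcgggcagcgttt
Olfr183: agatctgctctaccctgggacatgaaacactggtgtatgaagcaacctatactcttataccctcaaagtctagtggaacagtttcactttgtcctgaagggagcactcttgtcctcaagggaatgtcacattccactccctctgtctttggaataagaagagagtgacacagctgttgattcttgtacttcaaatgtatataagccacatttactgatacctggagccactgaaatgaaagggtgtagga

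The exact letters TATAAA, searched on both strands, occurred in the window of Olfr701 and in 0 of the other 3, against 12.4% of 32851 RefSeq windows of the same length. In the Olfr701 window they lay toward the end away from the RefSeq start. Variants of these letters were not searched. The cyclic AMP response element TGACGTCA (1.55% of all windows), the homeodomain core TAATTA (4.84%) and the Olf1/EBF letters CCCNNGGG (11.8%) occurred in 0 of the 4. Base composition differed widely among them. G and C made up 40.8% of the Olfr701 window, 63.2% for Olfr212, 43.2% for Olfr183 and 32% for Olfr32, against a median of 52.4% over all windows.

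Behind Olfr701 came a group of related receptors on chromosome 17, in the receptor cluster linked to the major histocompatibility complex. Olfr112, Olfr128, Olfr127, Olfr761 and Olfr126 belong to receptor family MOR218 in the older MOR nomenclature, and their summed counts were 891, 686, 335, 127 and 115. The other 6 genes of this family of 11 had at most 2 counts each, so the family divided into 5 genes with counts and 6 nearly silent ones. The coding sequences of the 5 were 84.7% to 94.0% identical to each other. Receptors of this class carry Asp-Arg-Tyr codons at the inner end of the third membrane segment, and the bases around them are compared here. The 45 coding bases starting at coding base 343 are printed from GENCODE M21 transcripts with those codons in capitals, with Olfr701 as a receptor of another family for comparison.
Olfr128: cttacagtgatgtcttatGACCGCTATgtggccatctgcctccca
Olfr112: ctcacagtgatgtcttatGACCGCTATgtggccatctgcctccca
Olfr127: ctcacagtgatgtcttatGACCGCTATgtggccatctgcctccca
Olfr761: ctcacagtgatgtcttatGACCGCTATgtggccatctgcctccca
Olfr126: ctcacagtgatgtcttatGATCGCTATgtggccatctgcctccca
Olfr701: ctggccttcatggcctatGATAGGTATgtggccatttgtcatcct

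Over these 45 bases Olfr112, Olfr127 and Olfr761 each differed from Olfr128 at 1 base, Olfr126 at 2 bases and Olfr701 at 15 bases. Among receptors of other families with these codons, Olfr32 was nearest to Olfr128 (5 bases) and Olfr1279 furthest (18 bases). On mm10 the stretch lies at chr17:37923910-37923954 (plus) for Olfr128, chr17:37563923-37563967 (minus) for Olfr112, chr17:37903890-37903934 (plus) for Olfr127, chr17:37952636-37952680 (minus) for Olfr761, chr17:37850936-37850980 (plus) for Olfr126 and chr7:106818427-106818471 (plus) for Olfr701. Such a triplet was found in this part of the coding sequence in 40 of the 45 receptors, and in 26 of them the stretch around it starts at the same coding base, 343.

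Within MOR218 the levels were graded, and neighbours in the order overlapped. Olfr112 had 1.75, 1.5 and 1.59 RPKM in WT and 1.90, 1.72 and 2.02 RPKM in KO. Olfr128 had 2.20, 1.74 and 1.75 RPKM in WT and 1.82, 1.17 and 1.72 RPKM in KO, a range that takes in most of the Olfr112 values. Olfr761, a single-exon gene of 1029 bases, had 1.56, 1.03 and 1.12 RPKM in WT and 1.09, 0.717 and 1.36 RPKM in KO. Olfr127 was lower on average per kilobase, at 1.05, 0.851 and 0.575 RPKM in WT and 0.964, 0.988 and 0.586 RPKM in KO, and overlapped Olfr761. In summed counts the order is reversed, with 335 for Olfr127 and 127 for Olfr761. The order per kilobase thus rests on the length of the gene model, which is 3734 bases for Olfr127. Olfr126 varied most of the 5, at 0.765, 0.655 and 0.337 RPKM in WT and 0.776, 0.145 and 0.602 RPKM in KO, and the low KO 2 value rests on 5 counts. The summed level of the 5 genes was 23.5, 19.1 and 17.9 CPM in WT and 22, 17.2 and 20.7 CPM in KO, so that the groups overlapped.

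The remaining named receptors by level lay on other chromosomes. Olfr733 on chromosome 14 had 1.17, 0.817 and 1.41 RPKM in WT and 1.63, 1.20 and 1.36 RPKM in KO, which overlaps Olfr761 and Olfr275. Olfr275 on chromosome 4 had 0.951, 0.873 and 0.814 RPKM in WT and 1.03, 1.22 and 0.879 RPKM in KO. Then came, by mean level, Olfr316 (0.760 RPKM), Olfr1393 (0.704), Olfr303 (0.621), Olfr273 (0.605), Olfr183 (0.541), Olfr364-ps1 (0.533) and Olfr1389 (0.497), with Olfr126 (0.547) between Olfr273 and Olfr183. Neighbours in this order overlapped in their library values.

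**Figure D1:**
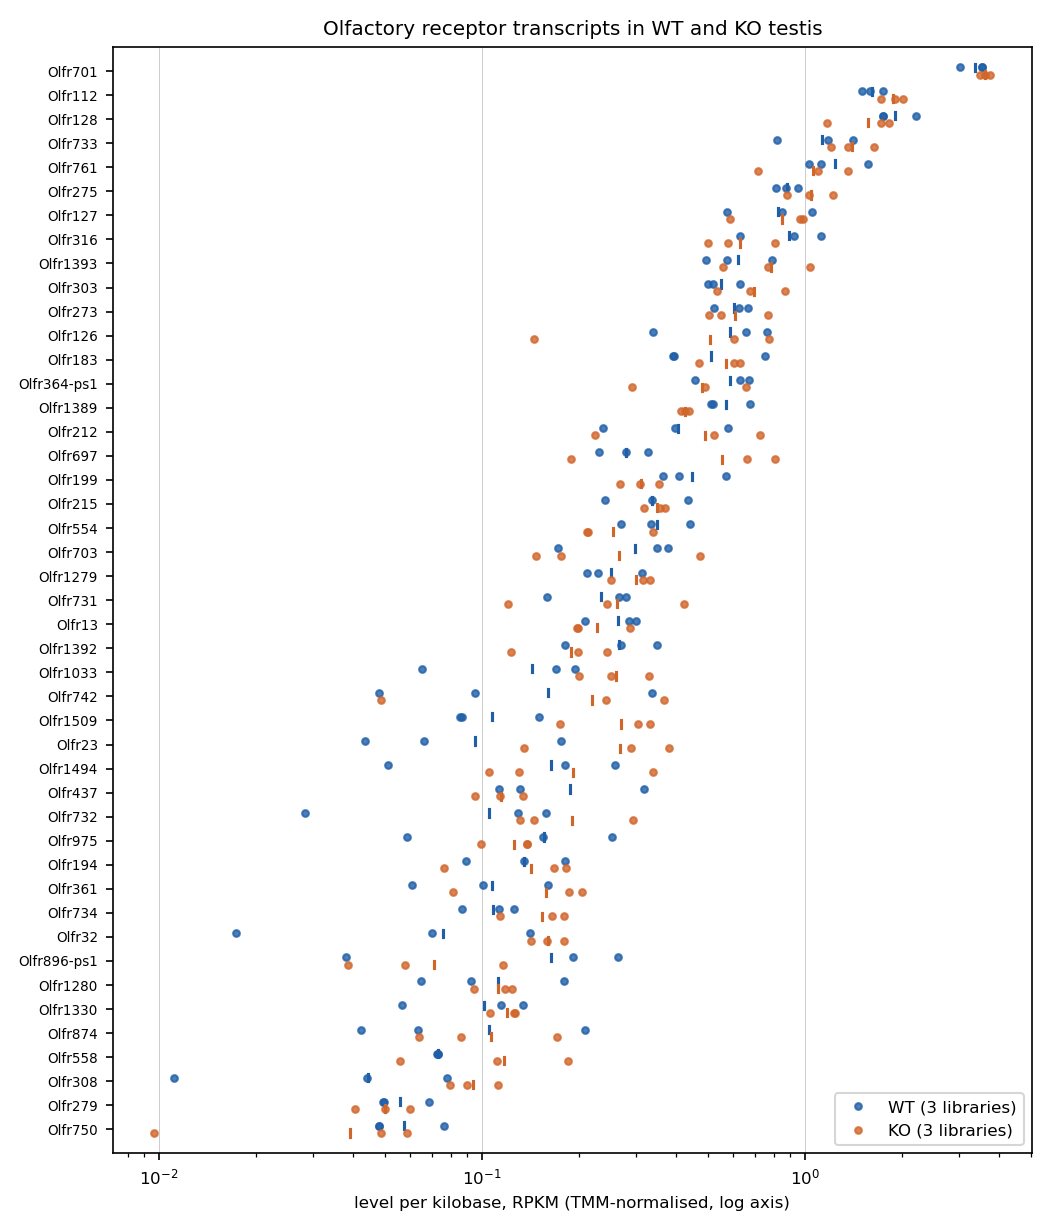
Level of the 45 olfactory receptor genes in each library, in RPKM on a log axis, with 1 row per gene in order of mean level, points for WT and KO libraries and ticks for the group means. Olfr701 stands apart at 3.02 to 3.74 RPKM, and the WT and KO points of most genes overlap.

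The gene models of the 45 receptors are mostly noncoding sequence. The median gene model was 3382 bases long, the coding length ran from 915 to 993 bases, and a median of 28.3% of the gene model was coding. More than 1 exon was annotated for 43 of the 45, against 985 of the 1090 coding receptors under the minimum (90.4%), whose median gene model was 2976 bases. Olfr364-ps1 and Olfr896-ps1 are coding genes in the deposited table and pseudogenes in RefSeq. By receptor class, 43 are class II (the class that dominates in land vertebrates) and 2, Olfr554 and Olfr558, are class I (the class shared with fish). Olfr554 had 86 counts and Olfr558 had 31.

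Among receptor pseudogenes of the table, 8 of 272 (2.94%) reached 30 counts, against 3.96% of the coding receptors, and 234 had none. Pseudogene models are shorter, with a median of 908 bases. The pseudogene with the most counts was Olfr443-ps1, with 303 counts and 1.75 RPKM, a level close to that of Olfr112.

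Because olfactory receptors arose by repeated duplication, the coding sequence of each was set against its closest copy among the other coding receptors. Identity to the closest copy ranged from 59.3% to 96.9%, with a median of 86.4%. For 25 of the 45 receptors that copy had 0 counts, and for 7 it was itself 1 of the 45. Of all 1135 coding receptors, 72.2% had 0 counts and 3.96% were among the 45. Of the 18 receptors more than 90% identical to their closest copy, 9 had a copy with 0 counts and 7 had one among the 45, and the remaining copies had at most 2 counts. Olfr199, with 111 counts, is 96.9% identical to Olfr201 and Olfr1393, with 227 counts, is 96.7% identical to Olfr10, and both copies had 0 counts.

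**Figure D2:**
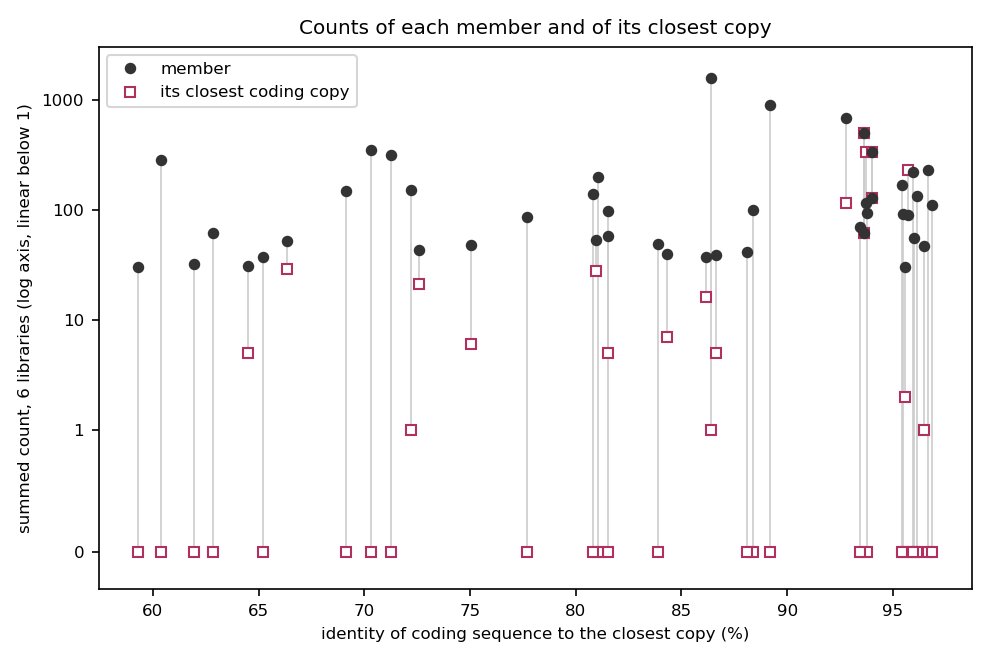
Summed counts of each of the 45 receptors and of its closest copy against their coding sequence identity in percent. Copies outside the 45 have fewer than 30 counts by the rule of choice, and those more than 90% identical had at most 2.

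Sharing of short sequences bears on how reads of such genes could be assigned. A median of 3.60% of the 50-base sequences of a receptor's exons occurred in transcripts of any other gene, receptor or not, on either strand. In 7 receptors none did, and in 11 more than 10% did. The highest shares were 30.1% in Olfr1393, 25.3% in Olfr761 and 25.1% in Olfr1392, and the share was 0.401% in Olfr701 and 4.12% in Olfr112. Counts of the 11 receptors above 10% are therefore less certain. They are Olfr1393 and Olfr1392 (95.7% identical to each other), Olfr761, Olfr742, Olfr126, Olfr316, Olfr194, Olfr127, Olfr364-ps1, Olfr128 and Olfr212. The authors' handling of reads with several matches, and their use of strand, are not stated in the labels or headers. Of the 45 genes, 42 overlap no other gene of the table. Olfr275 overlaps Gm12482 (55 counts), Olfr279 overlaps Olfr278-ps1 (0 counts) and Olfr558 overlaps Gm45688 (0 counts).

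By position, the 45 genes lay on 11 of the 18 chromosomes that carry coding receptors. When receptor genes with at most 1 Mb between neighbours were joined, the genome held 50 clusters, of which 19 held at least 1 of the 45 and 6 held 3 or more. Large clusters did not always hold many of the counts. The largest cluster, 227 genes on chromosome 2 from 85330779 to 90403897, held 2 of the 45 and 2.62% of the receptor counts, and 192 of its genes had none. A cluster of 60 genes on chromosome 10 (128989431 to 130214403) held 0 of the 45. A cluster of 4 genes on chromosome 4 (52814604 to 52972474) held 6.84%, of which Olfr275 and Olfr273 together made up 6.82%. In clusters of at most 10 genes, 5 of 104 genes (4.81%) were among the 45, and in larger ones 40 of 1031 (3.88%).

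Counts came mainly from 3 clusters. The chromosome 17 cluster (37083871 to 38336643, 49 genes), with Olfr112 as its highest, held 22.7% of the counts of all coding receptors. The chromosome 7 cluster around Olfr701 (106675005 to 108894420, 68 genes) held 18.3%, most of it Olfr701. Its relatives in family MOR283, Olfr703 and Olfr697, had 58 and 53 counts, and the other 9 genes of that family had at most 28. The chromosome 14 cluster (49894258 to 52495749, 36 genes) held 10.3% and the most receptors of the 45, with 7, led by Olfr733. The other clusters with 3 of the 45 were led by Olfr1393 on chromosome 11, Olfr183 on chromosome 16 and Olfr975 (0.140 RPKM) on chromosome 9. By family, 9 MOR families supplied 2 or more of the 45. In MOR256 the highest of the other genes had 27 counts and in MOR283 it had 28, just under the minimum. In the other 7 families the genes outside the 45 had at most 4 counts.

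Receptors of the 45 often sat beside each other. With no other coding receptor between them, Olfr731, Olfr732, Olfr733 and Olfr734 formed a run of 4 on chromosome 14, and Olfr126, Olfr127, Olfr128 and Olfr761 a run of 4 on chromosome 17. Runs of 2 were Olfr1393 with Olfr1392, Olfr1279 with Olfr1280, Olfr275 with Olfr273, and Olfr437 with Olfr13. Neighbours in a run could differ widely in level. Olfr733 had 500 counts and Olfr732, 93.6% identical to it, had 61. Olfr275 and Olfr273, with 349 and 312 counts, are only 62.5% identical. Other coding genes were mostly far away, at a median distance of 127297 bases, and 2 of the 45 had one within 10 kb.

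**Figure D3:**
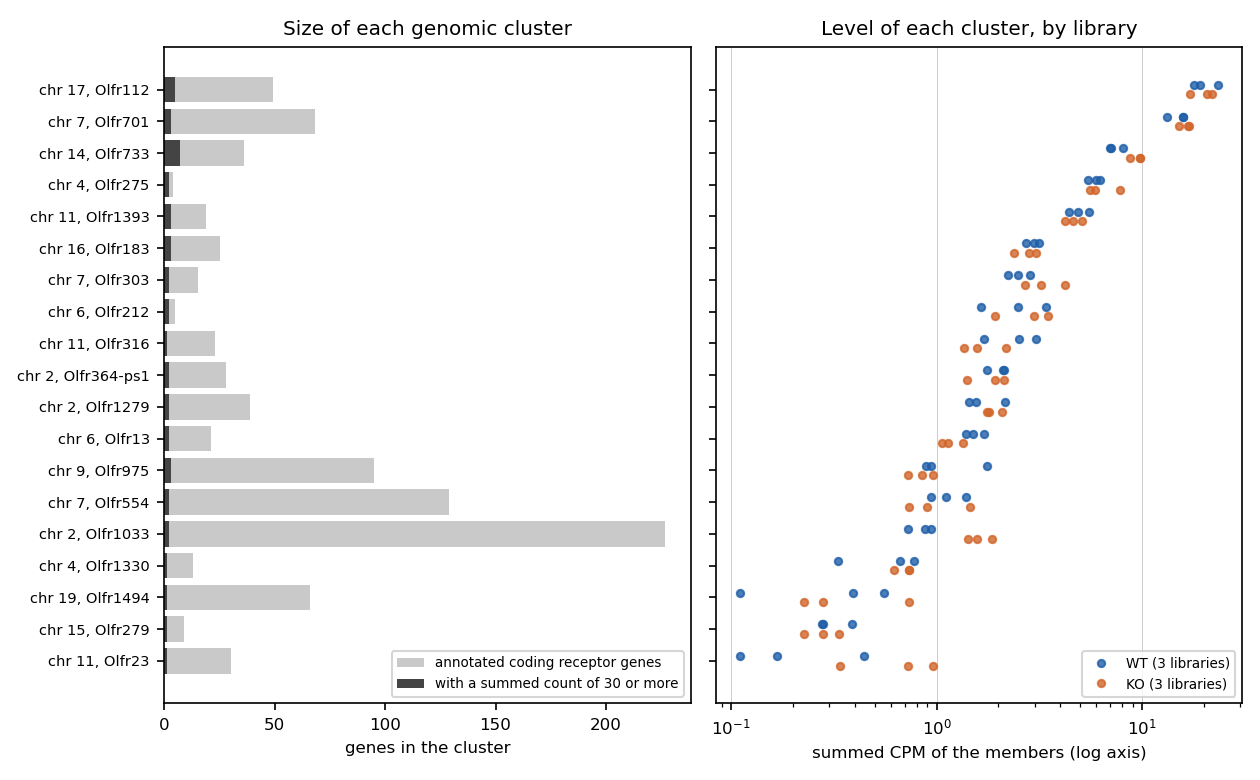
Genomic clusters that hold at least 1 of the 45 receptors: the number of receptor genes and of genes among the 45 in each (left), and their summed level in CPM on a log axis with a point for each WT and KO library (right). The cluster of Olfr112 has the highest sum, with overlapping WT and KO values, and the 227-gene cluster of Olfr1033 is among the lower ones.

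For the comparison of KO with WT, the 45 receptors as a whole were at nearly the same level. Their summed level was 79.9, 72.8 and 68.4 CPM in WT (73.7 ± 5.80, SD, n = 3) and 79.8, 75.2 and 78.7 CPM in KO (77.9 ± 2.43, SD, n = 3), a KO to WT ratio of 1.06 with overlapping groups. Each of the 45 had at least 1 count in every library. The number of coding receptors with a count was 139 to 157 in WT libraries and 150 to 174 in KO libraries.

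Single receptors could be tested where counts allowed. The filter on low counts kept 28 of the 45, and the other 17, with 30 to 62 summed counts, were not tested. Of the 28, edgeR called 0 at an adjusted p of 0.05 (0.00518% of all genes tested were called) and 0 had an unadjusted p under 0.05 (4.63% of all genes). DESeq2 and limma-voom also called 0 of the 28. Adjusted p in edgeR was 0.965 to 0.998. On the log2 scale 16 were higher and 12 lower in KO, with a median of 0.04 against -0.0025 over all genes tested. The interval of the fold change bounds what these libraries could show: in 15 of the 28, the 95% interval lay within a 2-fold change in either direction. WT and KO values did not overlap in 3 of the 28 (10.7%), against 9.32% of all genes tested.

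Olfr701 had a log2 fold change of 0.10 (95% interval -0.17 to 0.37), the narrowest interval of the 28. Olfr112 had 0.22 (-0.10 to 0.54), Olfr128 -0.27 (-0.69 to 0.14) and Olfr733 0.30 (-0.17 to 0.78). For these 4, changes of 2-fold lay outside the interval.

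The receptors with the smallest p on the higher side were Olfr1033, Olfr112, Olfr733, Olfr303 and Olfr1393. Olfr1033 on chromosome 2 had 13, 5 and 15 counts in WT and 25, 15 and 19 in KO, or 0.721, 0.279 and 0.826 CPM in WT and 1.41, 0.851 and 1.07 CPM in KO. The groups did not overlap, though the closest values differed by less than the spread within either group. Its log2 fold change was 0.86 (-0.06 to 1.78), with an unadjusted p of 0.0661 and an adjusted p of 0.965 by edgeR. Olfr303 and Olfr1393 had log2 fold changes of 0.33 (-0.20 to 0.86) and 0.34 (-0.28 to 0.97), and their groups overlapped.

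On the lower side these were Olfr316, Olfr1389, Olfr199, Olfr128 and Olfr1392. Olfr1389 on chromosome 11 had 2.50, 1.89 and 1.93 CPM in WT and 1.58, 1.53 and 1.63 CPM in KO, with a log2 fold change of -0.41 (-0.98 to 0.15). Olfr199 on chromosome 16 had 1.55, 1.11 and 0.991 CPM in WT and 0.844, 0.965 and 0.729 CPM in KO, with a log2 fold change of -0.52 (-1.27 to 0.22). These were the other pair without overlap. Olfr316 had -0.50 (-1.13 to 0.12) and Olfr1392 -0.49 (-1.37 to 0.39), both with overlapping groups.

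**Figure D4:**
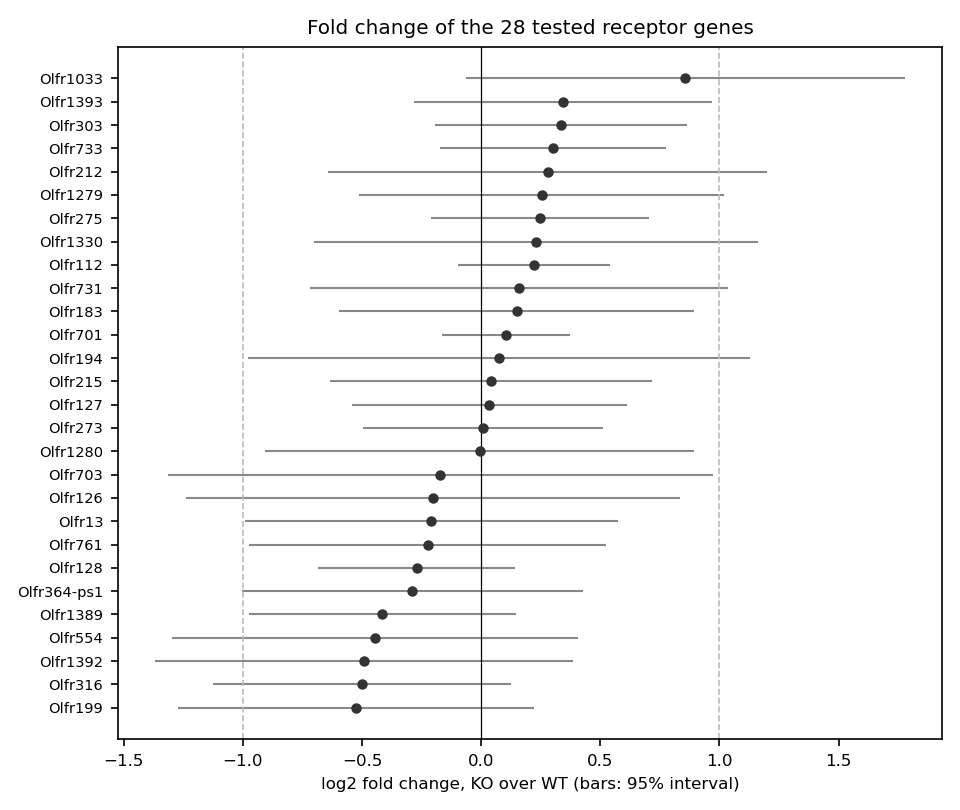
Log2 fold change of KO over WT with 95% intervals for the 28 tested receptors, from edgeR. Intervals of all 28 include 0. They mostly widen as the summed count falls, from Olfr701 to receptors with 55 counts, but not in strict order. That of Olfr126, with 115 counts (-1.24 to 0.83), is wider than that of Olfr1330, with 69 counts (-0.70 to 1.16).

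Of the 17 receptors that were not tested, 3 more (17.6%) had WT and KO values that did not overlap, each higher in KO. Among all 1911 untested genes with 30 to 62 summed counts, the groups did not overlap in 9.73%, with KO higher in 7.27%. Olfr1509 had 7, 4 and 4 counts in WT and 8, 15 and 14 in KO. Olfr32 had 0.222, 0.446 and 0.0551 CPM in WT and 0.450, 0.567 and 0.505 CPM in KO, and Olfr308 had 0.388, 0.0557 and 0.220 CPM in WT and 0.450, 0.397 and 0.561 CPM in KO. At the cluster level, sums of the 45 did not overlap between groups in 3 of 19 clusters (15.8%, against 9.32% of all single genes tested). The 7 receptors of the chromosome 14 cluster summed to 7.05, 6.97 and 8.04 CPM in WT and 8.78, 9.76 and 9.82 CPM in KO, a ratio of 1.29. Olfr1033 and Olfr32 together summed to 0.943, 0.724 and 0.881 CPM in WT and 1.86, 1.42 and 1.57 CPM in KO, a ratio of 1.90. Olfr13 and Olfr437 summed to 1.5, 1.39 and 1.71 CPM in WT and 1.35, 1.13 and 1.07 CPM in KO, a ratio of 0.772. These sums were not tested, and no share for sums of several genes was worked out to set beside them. Olfr1033, Olfr32 and Olfr1509 (the last in the chromosome 14 sum) were already given above as receptors without overlap. The cluster sums are therefore not separate evidence from the single receptors.

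Spread between libraries of a group exceeded counting error for many receptors. The chi-square of counts around the group means, per degree of freedom, had a median of 1.78 over the 45 and was above 2 in 19 of them. It was highest for Olfr742 at 5.55, whose counts were 2, 14 and 4 in WT and 2, 15 and 10 in KO.

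Genes of the olfactory transduction cascade were present unevenly. Of 18 listed genes in the table, 13 were tested and edgeR called 0. At an unadjusted p under 0.05 was 1, against 4.63% of all genes, and 6 were higher and 7 lower in KO. Gnal, the olfactory G protein alpha subunit, had 3.21 ± 1.47 CPM in WT and 3.91 ± 1.05 CPM in KO (SD, n = 3). Adcy3, the adenylate cyclase of olfactory cilia, had 4.37 ± 0.884 CPM in WT and 4.25 ± 0.501 CPM in KO (SD, n = 3). Cnga2, the main channel subunit of olfactory neurons, had 13 counts in all 6 libraries together, Gng13 had 8 and Omp, the classical marker of mature olfactory neurons, had 2. The highest were Pde1c (187 CPM in WT, 196 in KO), Gnb1 (187 and 180), Pde4a (92.6 and 87.8) and Grk3 (54.6 and 54.6). The gene under 0.05 was Gnas, the general stimulatory alpha subunit, at 7.63 ± 0.389 CPM in WT and 5.75 ± 0.0814 CPM in KO (SD, n = 3, edgeR adjusted p = 0.965).

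Among 12 genes for receptor trafficking and G protein chaperones, 10 were tested and edgeR called 0. Of these, 1 was higher and 9 lower in KO, against 9528 higher and 9792 lower over all genes tested. The median log2 fold change was -0.11, and the 9 lower include Ric8a (-0.000118) and Reep3 (-0.011). At an unadjusted p under 0.05 was 1 (Reep2, log2 fold change -0.18), against 4.63% of all genes. Rtp1 and Rtp2, which carry olfactory receptors to the cell surface, had only 66 and 35 counts. The highest of the list were Reep6, at 866 ± 12.7 CPM in WT and 796 ± 41.7 CPM in KO (SD, n = 3), Reep2 (126 and 111 CPM), Reep4 (97.2 and 90.4 CPM) and Reep1 (92.0 and 85.0 CPM). All 13 genes linked to receptor choice in neurons were tested and edgeR called 0, with 0 at an unadjusted p under 0.05, 6 higher and 7 lower and a median of -0.01. The highest of these were the histone methyltransferase gene Ehmt2 (459 CPM in WT, 425 in KO), the demethylase gene Kdm1a (159 and 150), the heterochromatin gene Cbx5 (60.6 and 67.9) and the nuclear envelope gene Lbr (40.3 and 43.1). All 12 markers of olfactory sensory neurons had a count, but only 6 had enough to be tested. Omp (2 counts in all 6 libraries), Gng13 and Stoml3 (8 each), Cnga2 (13), Gap43 (32) and Rtp2 (35) did not. The summed level of the 12 was 14.9 to 19.4 CPM in WT and 15 to 18.9 CPM in KO, led by Adcy3 and Gnal. The part of olfactory neurons or other cell types in the receptor counts was not tested beyond these values.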

How the data were processed

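Testis RNA of 3 WT and 3 KO samples was sequenced. The authors deposited raw counts per Ensembl gene with gene symbols, positions, lengths and biotypes, per the file headers; HISAT2 2.0.0 and mm10 are named per the submitters' processing notes. Neither labels nor headers state which counting tool, annotation release or strand mode was used. The receptors and gene lists were chosen with earlier results of these data known. Gene models came from GENCODE M21 (98.3% of the table's genes had the same coordinates) and promoter windows from RefSeq.

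Library totals were 17635045 to 18117593 counts, and no 2 libraries agreed within sampling noise (lowest chi-square per degree of freedom 4.31 over 15 pairs). KO was compared with WT by edgeR 4.0.16 (quasi-likelihood test, TMM, filterByExpr with minimum count 10, minimum total 15 and group size 3; Benjamini-Hochberg threshold 0.05 over 19320 genes) in R 4.3.3. Intervals are 95% intervals from the fit. Alternatives used DESeq2 1.42.0, limma 3.58.1 voom, other scalings, other filters, a replicate block and left-out libraries. On simulated counts for KO against WT (19320 genes, 200 changed in each of 3 runs), 32.8% of 1.5-fold, 66.7% of 2-fold and 92.9% of 4-fold changes were called. The changed genes were drawn from all genes tested, so these rates were not measured at the low counts of the receptors. Receptors named in the text are 1700052I22Rik, the 15 highest by RPKM, the 5 with the smallest p in each direction, those at the count minimum, the highest of each cluster with 3 or more, those that overlap another gene, and list genes by level; others were chosen after their values were seen.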

Additional observations from a re-analysis of the deposited data

How the results depend on the processing

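No receptor of the 45 was called under any alternative run. Over all genes, 1 was called, against 50 with no low-count filter, 2 with DESeq2 and 1 to 3 with each library left out in turn (3 without WT 2, and 2 without WT 3 or KO 3); the cause was not tested. With a filter of a summed count of at least 30, which lets all 45 be tested, 0 were called by edgeR, 28 were higher and 17 lower, the median log2 fold change was 0.10, and the smallest unadjusted p values were 0.0236 (Olfr1509, log2 fold change 1.30) and 0.0289 (Olfr23, 1.46), each with an adjusted p of 0.966. Of 247 values of 19 named genes under the alternatives, 236 kept their direction and side of the threshold and 11 changed sign. For Olfr273 the log2 fold change was -0.0102 with limma-voom and -0.0045 with the replicate block. With a library left out, it ranged from -0.19 to 0.13 for Olfr273, -0.17 to 0.25 for Olfr127, -0.64 to 0.24 for Olfr126 and -0.014 to 0.53 for Olfr183. The summed ratio ranged from 1.02 to 1.10. A count minimum of 15 gave 76 receptors and one of 60 gave 28. Same-numbered libraries deviated with correlations of -0.17, -0.03 and 0.11, and not every library matched its own number best. With so few libraries, these values cannot show whether the numbers pair the samples. The replicate block called 1 gene and 0 of the 45. Depth limits the receptors with few counts: 17 were not tested, and in 13 of the 28 tested the interval reached past a 2-fold change.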

Other observations

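Olfr16, Olfr1509 and Olfr78, looked up after the values of the 45 had been seen, were present at low level or not at all. Olfr16 (MOR23, chr1:172950409-172958357), a receptor linked to sperm chemotaxis, had 0 of 107528788 counts, which allows up to 0.0279 CPM (3 counts, counting error only). Olfr1509 (MOR83) had 52 counts and Olfr78 had 5.

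Other chemoreceptor families differed in how many genes reached 30 counts. Among vomeronasal receptors this was 7 of 207 Vmn1r genes (3.38%) and 14 of 122 Vmn2r genes (11.5%), with 1371 counts for Vmn2r7. Of the taste receptors, 2 of 3 Tas1r genes did, Tas1r1 with 2603 counts and Tas1r3 with 273, and 0 of 35 Tas2r genes did. None of 15 Taar genes reached it, nor did any of 3 genes named Fpr and a number, the only Fpr symbols searched. In the Ms4a family 12 of 19 genes did, with 45061 counts for Ms4a14.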
